A study of Homo sapiens with 15 samples.

Results

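The 10 genes described here encode proteins of the kinetochore and the spindle checkpoint: CENPA, CENPE, CENPF, NDC80, ZWINT, BUB1, BUB1B, BUB3, MAD2L1 and TTK. They were chosen by name, with earlier results of these data known. Each was read from the probe set of its symbol with the highest mean over all arrays, which made them 10 of the 11963 genes measured. Their transcripts were followed in MCF-10A, an established human mammary epithelial line that is immortalized but does not form tumours, 48 hours after viral infection, on 15 Affymetrix arrays. All groups shared this line and its standard growth conditions and differed in the introduced construct. In the knockdown arm, 2 arrays carried RNA from cells with shDBD, a short hairpin RNA (shRNA) against the DNA-binding domain and so against every isoform of p63, a p53-related transcription factor of basal epithelium. Another 2 arrays were from cells with shTA, a hairpin against the isoforms that contain the transactivating domain, and 2 from cells with the shRNA vector. In the overexpression arm, 3 arrays each were from cells given ΔNp63α, an isoform without that N-terminal domain, from cells given TAp63γ, an isoform with it, and from cells given the overexpression vector. The labels name retroviral and adenoviral infection without saying which was used for which group. They call the replicates biological without stating that each was infected separately, and the p-values cover only the spread between these samples.

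The kinetochore is the protein assembly on the centromere that binds spindle microtubules in mitosis. While any kinetochore is unattached, the spindle checkpoint holds back the anaphase-promoting complex, the ubiquitin ligase that starts chromosome separation. Transcripts of most of these proteins are made in G2 phase and mitosis and are scarce in resting cells. In RNA from whole cultures, fewer cells in those phases and less RNA per cell cannot be told apart.

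Levels are given as log2 values of the deposited robust multi-array average (RMA) of each probe set, and a difference of 1 is a 2-fold change. Array medians ran from 7.189 to 7.213 in the knockdown arm and from 6.951 to 6.983 in the overexpression arm, so treatments were compared within an arm. Replicates correlated across probe sets at 0.9925 or more, the lowest value being that of ΔNp63α replicates 1 and 3. Of 9 listed markers of a breast epithelial line, 6 could be read, and their median percentiles on the arrays lay between 93.7 and 99.4. The markers of fibroblasts lay between the percentiles 0.141 and 66.5, those of immune cells between 26.8 and 32.6, and those of endothelium between 9 and 30.8. Since the p63 transcript was not analysed here, it gave no check of the labels.

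Promoter windows were available for 8 of the 10 genes, taken from RefSeq on the build GRCh38.p14 and running from 250 bases before to 50 bases after the annotated start of the transcript. The cell cycle genes homology region (CHR) and the CCAAT box are promoter elements known from genes transcribed in G2 phase and mitosis: the CHR is bound by the DREAM complex, which represses these genes in resting cells, and the CCAAT box by the activator NF-Y. On both strands, a CHR (TTTGAA or TTCGAA) was found in 7 of the 8 windows (87.5%), against 12.4% of the 9563 windows of genes tested on the arrays and 16.6% of all 27305 windows. A CCAAT was found in 5 of 8 (62.5%), against 37.3% of the windows of genes tested, and both together in 5 of 8, against 5.25%. The E2F motifs TTTCGCGC, TTTGGCGC and TTTCCCGC were found in 1 of 8 windows, that of CENPA, against 4.12%. In the 42 windows of other pathway genes the shares were 35.7% for the CHR, 57.1% for CCAAT, 26.2% for both and 11.9% for E2F, so for CCAAT and E2F they were close to those of the 8. A match is a string of letters and not a measured binding site.

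The 5 windows printed below belong to the genes on which the comparison of treatments turns: BUB1 and BUB1B, whose falls were far larger with shDBD than with TAp63γ, CENPF and NDC80, which fell steeply with both, and CENPE, which fell most with TAp63γ. They are written 5′ to 3′ on the strand of the gene, with CHR and CCAAT matches of either strand in capitals (TTCAAA and ATTGG are the reverse complements of TTTGAA and CCAAT). The BUB1 window is chr2:110678014-110678313 (minus strand), that of BUB1B chr15:40160819-40161118 (plus), that of CENPF chr1:214602945-214603244 (plus), that of NDC80 chr18:2571307-2571606 (plus) and that of CENPE chr4:103198294-103198593 (minus).
BUB1: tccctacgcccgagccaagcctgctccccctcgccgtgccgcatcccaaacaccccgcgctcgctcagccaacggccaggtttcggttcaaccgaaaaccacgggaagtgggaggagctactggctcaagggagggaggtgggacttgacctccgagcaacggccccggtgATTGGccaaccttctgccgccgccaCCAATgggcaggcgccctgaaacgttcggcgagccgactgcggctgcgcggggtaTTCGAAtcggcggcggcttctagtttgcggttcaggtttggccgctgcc
BUB1B: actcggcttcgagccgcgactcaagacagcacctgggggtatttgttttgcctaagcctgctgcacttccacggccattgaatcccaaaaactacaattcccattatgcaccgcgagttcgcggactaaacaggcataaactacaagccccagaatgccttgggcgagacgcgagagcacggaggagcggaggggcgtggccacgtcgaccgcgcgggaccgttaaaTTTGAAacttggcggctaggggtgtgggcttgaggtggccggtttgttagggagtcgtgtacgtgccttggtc
CENPF: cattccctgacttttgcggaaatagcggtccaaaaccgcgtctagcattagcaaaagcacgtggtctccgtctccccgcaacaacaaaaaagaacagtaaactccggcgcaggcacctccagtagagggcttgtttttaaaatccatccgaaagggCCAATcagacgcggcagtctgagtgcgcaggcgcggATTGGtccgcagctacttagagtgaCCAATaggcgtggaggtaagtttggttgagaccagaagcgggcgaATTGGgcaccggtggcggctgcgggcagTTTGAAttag
NDC80: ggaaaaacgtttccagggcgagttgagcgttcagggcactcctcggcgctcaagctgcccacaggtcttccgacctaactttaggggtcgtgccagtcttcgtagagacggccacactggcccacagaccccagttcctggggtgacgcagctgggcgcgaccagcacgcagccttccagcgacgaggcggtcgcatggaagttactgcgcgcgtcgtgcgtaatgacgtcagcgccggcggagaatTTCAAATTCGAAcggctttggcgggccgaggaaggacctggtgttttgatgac
CENPE: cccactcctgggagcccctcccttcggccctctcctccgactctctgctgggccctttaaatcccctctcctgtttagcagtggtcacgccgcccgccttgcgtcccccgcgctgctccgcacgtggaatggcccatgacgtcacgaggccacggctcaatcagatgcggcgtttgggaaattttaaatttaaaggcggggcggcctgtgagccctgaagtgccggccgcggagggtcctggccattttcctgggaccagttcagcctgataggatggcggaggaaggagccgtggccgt
The CHR began 2 bases after the start in BUB1, 23 bases before it in BUB1B (−23) and 41 bases after it in CENPF. NDC80 had a pair of adjoining CHR matches, at −3 and 4. The CENPE window held no match to any of the 6 motifs searched. In the windows not printed, the CHR began at −18 in CENPA, at 25 in MAD2L1 and at −31 in ZWINT (at −17 in a second annotated window of ZWINT). All CHR matches in these genes thus lay between −31 and 41.

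**Figure D1:**
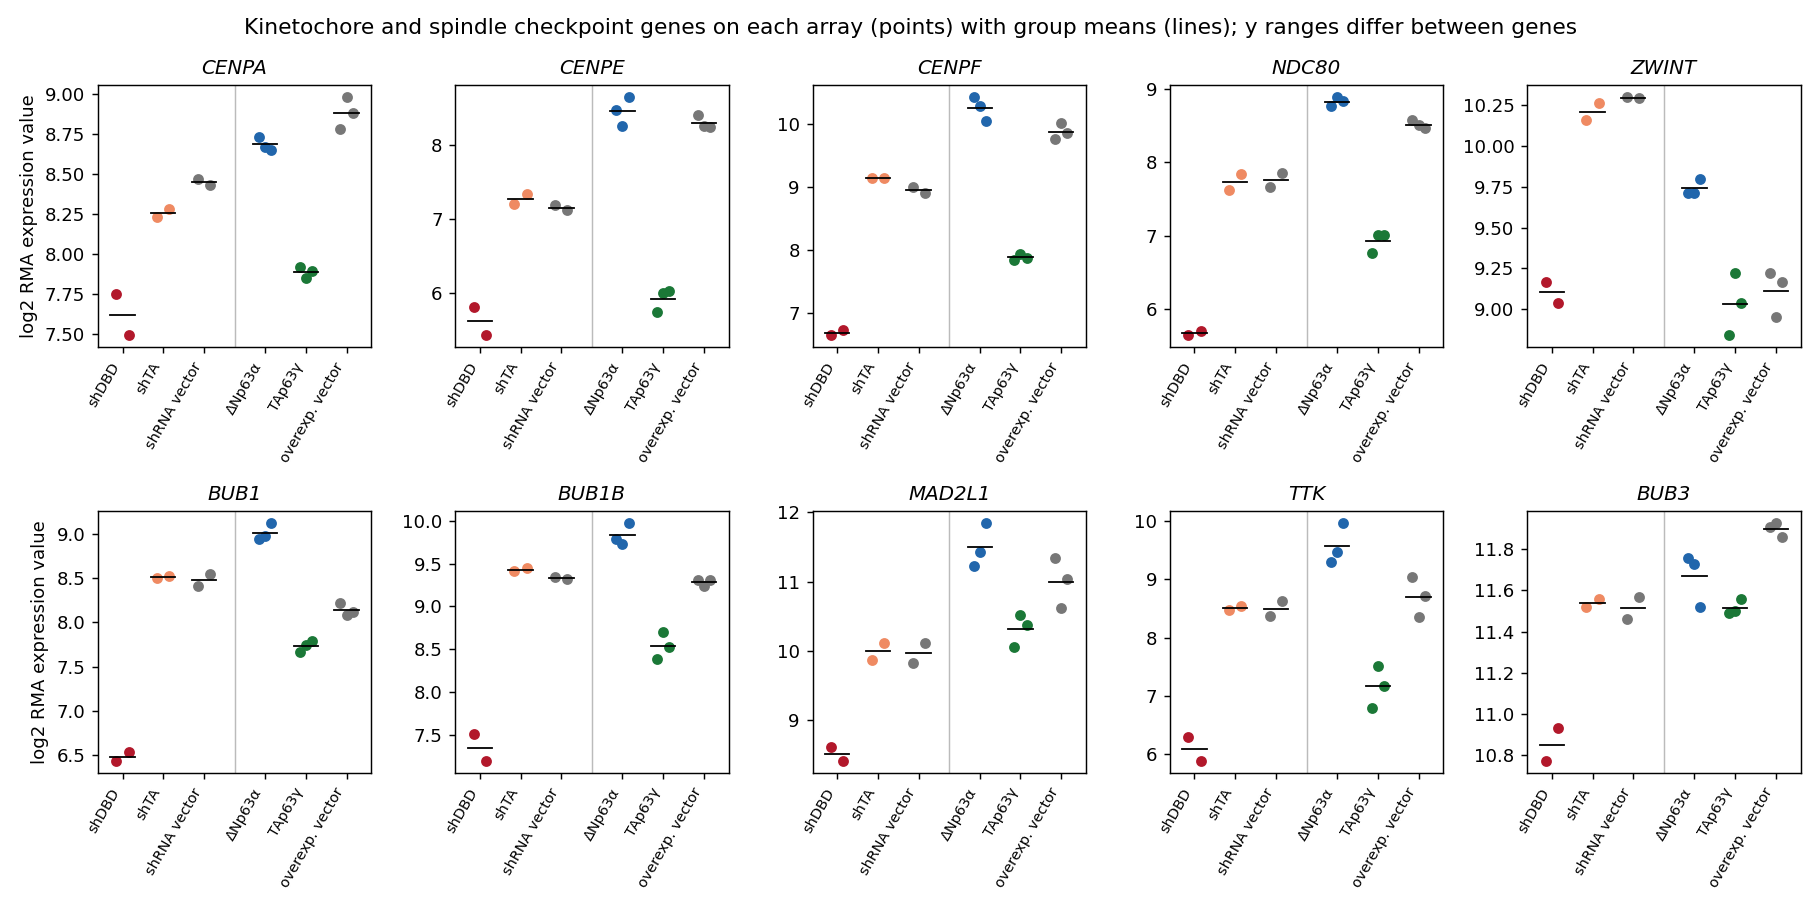
Log2 RMA expression values (y axis, range set per gene) of the 10 genes on each array (points), with the group means (lines); shDBD, shTA and the shRNA vector stand left of the vertical line, and ΔNp63α, TAp63γ and the overexpression vector right of it. In every panel both shDBD arrays lie below the shTA and vector arrays. TAp63γ arrays lie below the ΔNp63α arrays except for BUB3, where they overlap. The share of all genes separated in these ways was not counted.

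The comparison of shDBD with the shRNA vector asked which transcripts depend on p63 of any isoform. All 10 kinetochore and checkpoint transcripts were lower with shDBD, by 1.59-fold for BUB3 to 5.31-fold for TTK. Over all 11963 genes, 10.2% were called lower and 11.1% higher at an adjusted p under 0.05 (limma, Benjamini-Hochberg). The median log2 change of the 10 genes was −1.76, against 0.00 over all genes.

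CENPA, the histone H3 variant that marks the centromere, had log2 values of 7.75 and 7.49 with shDBD and of 8.23 and 8.28 with shTA, against 8.47 and 8.43 with the vector. Its log2 change with shDBD was −0.83 ± 0.0987 (SE; adjusted p = 1.75e-05). The shDBD arrays of CENPA differed more from each other than the vector arrays did, but both were below every other array of the arm.

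At the outer kinetochore, NDC80, the microtubule-binding subunit of the complex of that name, stood at 5.64 and 5.70 with shDBD and at 7.62 and 7.84 with shTA, against 7.66 and 7.85 with the vector, a log2 change of −2.08 ± 0.109 for shDBD (adjusted p = 5.90e-09). CENPF, a large coiled-coil protein that accumulates in G2 phase, stood at 6.65 and 6.74 with shDBD and at 9.14 and 9.15 with shTA, against 9.00 and 8.90 with the vector (−2.26 ± 0.118 for shDBD, adjusted p = 5.90e-09). Both fell steeply, CENPF 4.77-fold and NDC80 4.23-fold, and their shDBD replicates lay close together. CENPE, a kinesin that carries chromosomes to the spindle equator, had 5.80 and 5.42 with shDBD and 7.20 and 7.34 with shTA, against 7.18 and 7.12 with the vector (−1.54 ± 0.142 for shDBD, adjusted p = 1.23e-06). ZWINT, which links the outer kinetochore to a complex that recruits checkpoint proteins, had 9.17 and 9.04 with shDBD and 10.16 and 10.26 with shTA, against 10.30 and 10.29 with the vector (−1.19 ± 0.12 for shDBD, adjusted p = 3.14e-06). The shDBD arrays of CENPE were at the 26.1 and 20.4 percentiles of their arrays and those of NDC80 at 23.7 and 24.5, near the 20th percentile below which a level was not taken as above background.

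Among the checkpoint kinases, TTK, also known as MPS1, which starts checkpoint signalling at unattached kinetochores, had 6.29 and 5.88 with shDBD and 8.47 and 8.54 with shTA, against 8.37 and 8.62 with the vector. Its log2 change with shDBD, −2.41 ± 0.251 (adjusted p = 4.45e-06), was the largest of the 10 in this comparison and also had the largest standard error. BUB1, the kinase that TTK brings to the kinetochore, had 6.43 and 6.53 with shDBD and 8.50 and 8.53 with shTA, against 8.41 and 8.55 with the vector (−2.00 ± 0.0953 for shDBD, adjusted p = 2.43e-09). BUB1B, which encodes the related protein BUBR1, had 7.51 and 7.19 with shDBD and 9.41 and 9.45 with shTA, against 9.34 and 9.32 with the vector (−1.98 ± 0.122 for shDBD, adjusted p = 2.50e-08). The falls of BUB1 and BUB1B with shDBD were of nearly the same size.

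The soluble checkpoint complex that inhibits CDC20 binds it with BUBR1, BUB3 and MAD2, the product of MAD2L1. MAD2L1 had 8.61 and 8.41 with shDBD and 9.87 and 10.12 with shTA, against 9.82 and 10.12 with the vector (−1.46 ± 0.223 for shDBD, adjusted p = 1.83e-04). BUB3, the partner that carries BUB1 and BUBR1 to kinetochores, had 10.77 and 10.93 with shDBD and 11.52 and 11.56 with shTA, against 11.46 and 11.57 with the vector (−0.67 ± 0.0887 for shDBD, adjusted p = 5.27e-05). BUB3 thus had the smallest fall of the 10, and without it the median of the other 9 was −1.98.

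With shTA, compared with the same vector arrays, 0 of the 10 genes passed in limma, and 0 had an unadjusted p under 0.05, while 2.29% of all genes were called in either direction. The log2 changes lay between −0.19 for CENPA (95% interval −0.40 to 0.02, adjusted p = 0.435) and 0.19 for CENPF (−0.06 to 0.44, adjusted p = 0.553). Their median was 0.02, against −0.01 over all genes. The arrays with shTA and with the vector overlapped for BUB1, BUB3, MAD2L1, NDC80 and TTK. They did not overlap for CENPA, CENPE, CENPF, BUB1B and ZWINT. With 2 arrays a group, a lack of overlap alone does not show a change. The share of all genes without overlap was not counted. The intervals left room for changes in either direction, the widest being that of TTK (0.01, −0.53 to 0.54). Each interval rests on a variance shared over all 15 arrays, so it also reflects the spread in the overexpression arm. For TTK the SD was 0.0512 with shTA, 0.178 with the shRNA vector and 0.295 with shDBD. In the overexpression groups it was 0.338 to 0.36.

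Set directly against shTA, all 10 transcripts were lower with shDBD, with 9.23% of all genes called lower and 9.14% higher. The median log2 difference was −1.85, against 0.02 over all genes, and the 10 differences ran from −0.63 ± 0.0987 for CENPA (adjusted p = 2.70e-04) to −2.45 ± 0.118 for CENPF (adjusted p = 3.23e-09). NDC80 differed by −2.06, BUB1 by −2.04 and BUB1B by −2.08, values close to their differences from the vector. Both hairpins share the vector arrays, so their changes against the vector are not independent. In each of the 10 genes the order of the group means placed shDBD lowest, and the difference between shTA and the vector passed in none of them.

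**Figure D2:**
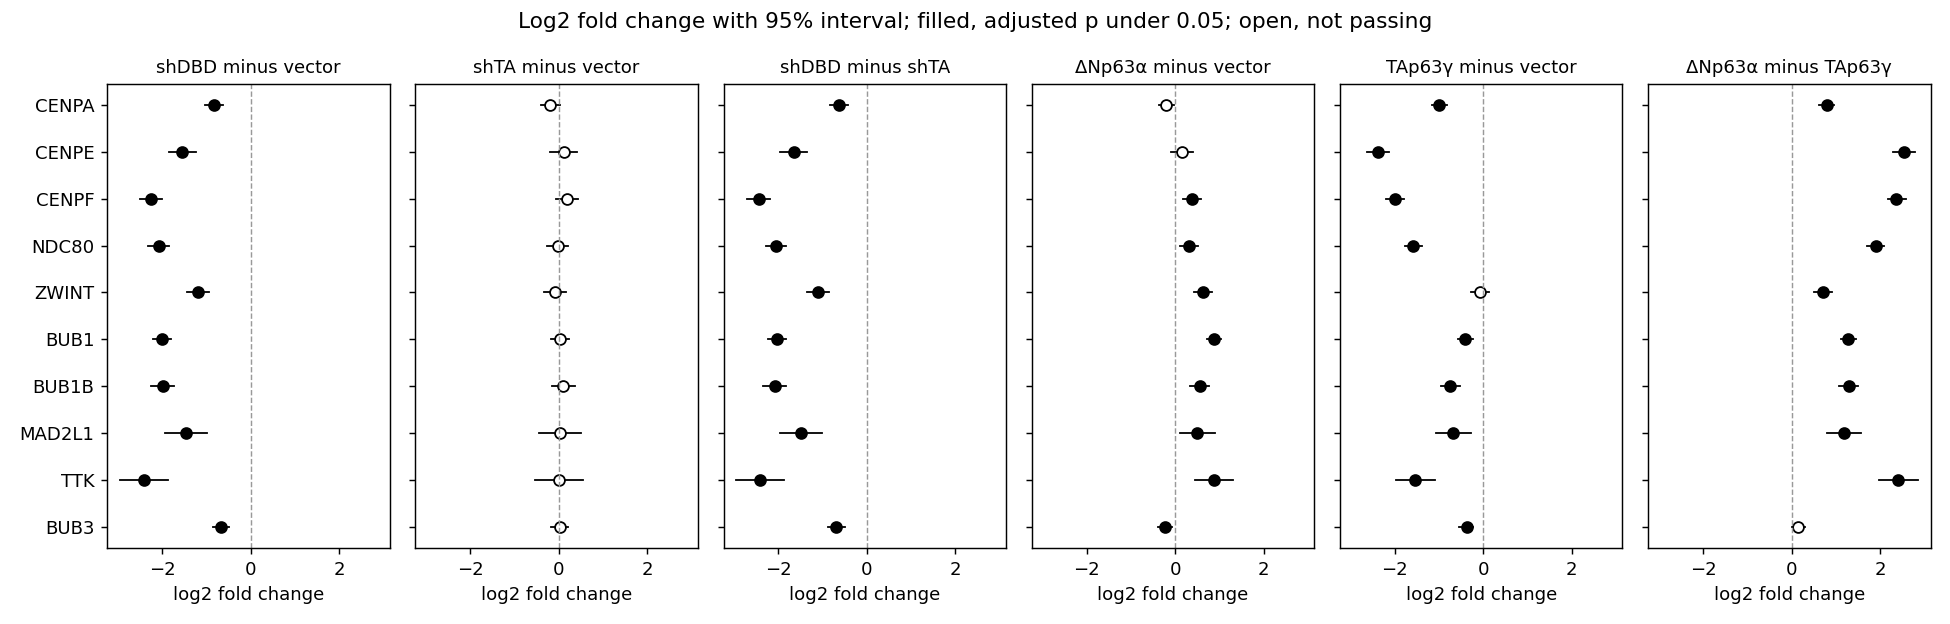
Log2 fold changes (x axis) of the 10 genes (rows) in the 6 comparisons (panels), with 95% intervals; filled points passed at an adjusted p under 0.05 and open points did not. With shDBD all 10 points are filled and left of 0, with shTA all 10 are open, and between ΔNp63α and TAp63γ the BUB3 point alone is open.

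With ΔNp63α, compared with the overexpression vector, 7 of the 10 transcripts were higher, 1 was lower (BUB3) and 2 did not pass (CENPA and CENPE). Of all genes, 12.3% were called higher and 16.6% lower. The rises were between 1.24-fold for NDC80 and 1.84-fold for BUB1, and the median log2 change of the 10 was 0.44, against 0.00 over all genes. With TAp63γ, compared with the same vector arrays, 9 transcripts were lower and ZWINT did not pass, with 22.8% of all genes called lower and 20.5% higher. The falls were between 1.3-fold for BUB3 and 5.22-fold for CENPE, with a median log2 change of −0.87, against −0.02 over all genes.

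The centromeric histone CENPA had log2 values of 8.73, 8.67 and 8.65 with ΔNp63α and of 7.92, 7.85 and 7.89 with TAp63γ, against 8.78, 8.98 and 8.88 with the vector. It fell with TAp63γ (−1.00 ± 0.0806, adjusted p = 6.49e-08). With ΔNp63α its log2 change was −0.20 ± 0.0806 and did not pass (adjusted p = 0.0782), although all 3 ΔNp63α arrays lay below all 3 vector arrays. CENPA thus did not share the rise that most of the 10 had with ΔNp63α.

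NDC80 had 8.76, 8.89 and 8.83 with ΔNp63α and 6.76, 7.01 and 7.01 with TAp63γ, against 8.57, 8.50 and 8.46 with the vector. Its rise with ΔNp63α (0.32 ± 0.0893, adjusted p = 0.0142) was small beside its fall with TAp63γ (−1.59 ± 0.0893, adjusted p = 1.15e-09). The rise did not pass without ΔNp63α replicate 2 (0.28, adjusted p = 0.0538) or without vector replicate 3 (0.29, adjusted p = 0.0561). CENPF, with 10.43, 10.28 and 10.05 with ΔNp63α and 7.85, 7.94 and 7.87 with TAp63γ, against 9.76, 10.02 and 9.86 with the vector, showed the same 2 directions. Its log2 change was 0.37 ± 0.0962 with ΔNp63α (adjusted p = 0.00772) and −2.00 ± 0.0962 with TAp63γ (adjusted p = 1.83e-10).

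CENPE, the kinesin, had 8.47, 8.26 and 8.65 with ΔNp63α and 5.74, 5.99 and 6.02 with TAp63γ, against 8.41, 8.25 and 8.24 with the vector. The TAp63γ arrays were far below all others of the arm, and this fall (−2.38 ± 0.116, adjusted p = 1.94e-10) was the largest of the 10 with TAp63γ. The ΔNp63α arrays overlapped the vector arrays (0.16 ± 0.116, 95% interval −0.09 to 0.40, adjusted p = 0.37). ZWINT had 9.71, 9.71 and 9.80 with ΔNp63α and 8.84, 9.22 and 9.04 with TAp63γ, against 9.22, 8.95 and 9.17 with the vector. For ZWINT the pattern was the reverse of that of CENPE: it rose with ΔNp63α (0.63 ± 0.0976, adjusted p = 1.42e-04), and TAp63γ and vector arrays overlapped (−0.08 ± 0.0976, 95% interval −0.29 to 0.12, adjusted p = 0.537).

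BUB1 had 8.94, 8.98 and 9.13 with ΔNp63α and 7.67, 7.74 and 7.79 with TAp63γ, against 8.22, 8.08 and 8.12 with the vector. It had the largest rise of the 10 with ΔNp63α (0.88 ± 0.0778, adjusted p = 5.08e-07) and a smaller fall with TAp63γ (−0.41 ± 0.0778, adjusted p = 4.51e-04). BUB1B had 9.79, 9.73 and 9.98 with ΔNp63α and 8.39, 8.70 and 8.53 with TAp63γ, against 9.31, 9.24 and 9.31 with the vector (0.55 ± 0.0999 with ΔNp63α, adjusted p = 6.05e-04, and −0.75 ± 0.0999 with TAp63γ, adjusted p = 1.48e-05). In both genes the 3 groups were separate on every array. TTK had 9.29, 9.47 and 9.97 with ΔNp63α and 6.80, 7.52 and 7.17 with TAp63γ, against 9.03, 8.36 and 8.71 with the vector (0.87 ± 0.205 with ΔNp63α, adjusted p = 0.00419, and −1.54 ± 0.205 with TAp63γ, adjusted p = 1.46e-05). The TTK arrays spread more widely within groups than those of BUB1, and the groups still did not overlap.

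MAD2L1 had 11.22, 11.43 and 11.85 with ΔNp63α and 10.06, 10.52 and 10.38 with TAp63γ, against 11.34, 10.62 and 11.03 with the vector. Its fall with TAp63γ passed (−0.68 ± 0.182, adjusted p = 0.00624). The rise with ΔNp63α (0.50 ± 0.182) passed narrowly (adjusted p = 0.0499) while the arrays of both groups overlapped. In 18 of 24 alternative settings that call was lost, among them the fits without ΔNp63α replicate 3 (0.33, adjusted p = 0.193) and without vector replicate 2 (0.32, adjusted p = 0.225), and with the replicate number as a block its adjusted p was 0.0719. BUB3 had 11.76, 11.73 and 11.52 with ΔNp63α and 11.49, 11.50 and 11.56 with TAp63γ, against 11.91, 11.93 and 11.86 with the vector. It fell with both, by 0.23 on the log2 scale with ΔNp63α (SE 0.0724, adjusted p = 0.0251) and by 0.38 with TAp63γ (SE 0.0724, adjusted p = 4.10e-04). The fall of BUB3 with ΔNp63α did not pass without ΔNp63α replicate 3 (−0.16, adjusted p = 0.0955), without vector replicate 1 (−0.23, adjusted p = 0.0637) or without vector replicate 2 (−0.21, adjusted p = 0.074).

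Set against each other, ΔNp63α gave higher levels than TAp63γ for 9 of the 10 transcripts, with 19.2% of all genes called higher and 20.6% lower. The median log2 difference was 1.29, against 0.02 over all genes. CENPE (2.54 ± 0.116, adjusted p = 2.46e-10), TTK (2.41 ± 0.205, adjusted p = 2.34e-07) and CENPF (2.37 ± 0.0962, adjusted p = 9.05e-11) differed most, by 5.81-fold, 5.31-fold and 5.17-fold in that order. NDC80 differed by 1.90 ± 0.0893, BUB1B by 1.29 ± 0.0999, BUB1 by 1.28 ± 0.0778 and MAD2L1 by 1.18 ± 0.182. The difference was 0.80 ± 0.0806 for CENPA and 0.71 ± 0.0976 for ZWINT. BUB3 did not pass (0.15 ± 0.0724, 95% interval 0.00 to 0.31, adjusted p = 0.114), but it passed without ΔNp63α replicate 3 (0.23, adjusted p = 0.013). In 8 genes the order of the means was ΔNp63α, vector, TAp63γ from high to low, with neighbours apart beyond their spread except for ZWINT, whose TAp63γ and vector arrays overlapped, and CENPE and MAD2L1, whose ΔNp63α and vector arrays did. For CENPA and BUB3 the vector was highest.

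Most of these transcripts were lower both with TAp63γ, which adds a p63 isoform, and with shDBD, which is directed against all of them. A test of the difference between both effects, each against its own vector, was added after the values had been seen. It crosses the arms, so differences in virus, vector and normalization between the arms cannot be told apart from it. The TAp63γ effect was less negative than the shDBD effect for 6 genes, more negative for CENPE, and did not pass for CENPA, CENPF and BUB3, with 16.0% of all genes called higher and 18.6% lower. For BUB1 the log2 changes were −0.41 with TAp63γ and −2.00 with shDBD, a difference of 1.60 ± 0.123 (adjusted p = 9.66e-08). For BUB1B they were −0.75 with TAp63γ and −1.98 with shDBD (1.23 ± 0.158, adjusted p = 1.81e-05), and for ZWINT −0.08 with TAp63γ and −1.19 with shDBD (1.11 ± 0.154, adjusted p = 4.20e-05). The mean level of ZWINT was 9.11 with the overexpression vector, 10.29 with the shRNA vector and 9.10 with shDBD. In the same order of vectors the means were 8.14 and 8.48 for BUB1 and 9.29 and 9.33 for BUB1B. The part of these starting levels in the differences was not tested. With TAp63γ the means of these 3 genes were 1.33-fold (BUB1), 1.68-fold (BUB1B) and 1.06-fold (ZWINT) below the vector, and with shDBD they were 4.01-fold, 3.95-fold and 2.28-fold below it.

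CENPE went the other way, with −2.38 for TAp63γ and −1.54 for shDBD (−0.84 ± 0.183, adjusted p = 0.00189). Its mean level was 8.30 with the overexpression vector and 7.15 with the shRNA vector, and its shDBD arrays stood at the low percentiles given above; the part of these levels in the difference was not tested. NDC80 had −1.59 for TAp63γ and −2.08 for shDBD (0.50 ± 0.141, adjusted p = 0.0121), but the difference did not pass without shRNA vector replicate 2 (0.40, adjusted p = 0.0764) or without shDBD replicate 1 (0.46, adjusted p = 0.0511). For TTK (0.87 ± 0.324, adjusted p = 0.0486) and MAD2L1 (0.78 ± 0.288, adjusted p = 0.0473) the difference passed narrowly and was lost in 16 of 23 alternatives each. In these 2 genes the highest adjusted p was 0.214 for TTK, without shDBD replicate 2 (0.66), and 0.185 for MAD2L1, without shRNA vector replicate 2 (0.63). CENPA (−0.17 ± 0.127, 95% interval −0.44 to 0.10), CENPF (0.26 ± 0.152, −0.07 to 0.58) and BUB3 (0.28 ± 0.114, 0.04 to 0.53, adjusted p = 0.0697) did not pass, and BUB3 passed without shDBD replicate 2 (0.36, adjusted p = 0.0478) and without ΔNp63α replicate 3 (0.28, adjusted p = 0.0242).

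**Figure D3:**
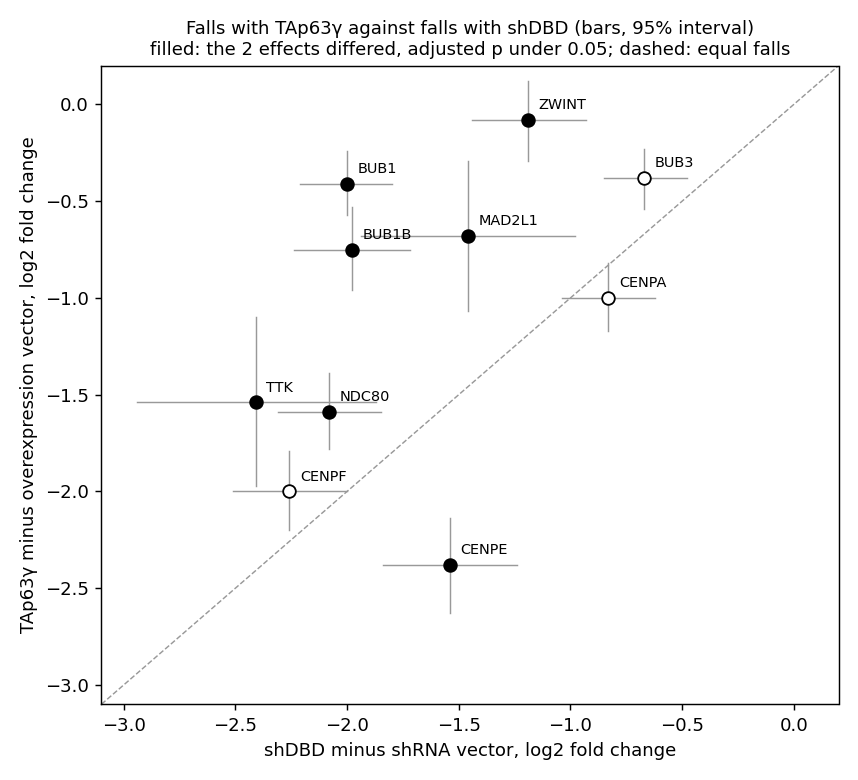
Log2 fold change with TAp63γ against the overexpression vector (y axis) and with shDBD against the shRNA vector (x axis) for the 10 genes, with 95% intervals; the dashed line marks equal changes, and filled points are genes whose 2 changes differed at an adjusted p under 0.05. BUB1, BUB1B and ZWINT lie well above the line, CENPE lies below it, and CENPA, CENPF and BUB3 are open.

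Only 3 of the 10 genes had more than 1 probe set, 19 probe sets in all, and these were compared in a fit over the 19064 probe sets with 1 symbol. Of 54 values from the 9 other probe sets, 21 were called together with the probe set used, and 0 of these in the opposite direction. The 3 other probe sets of BUB3 also fell with TAp63γ, by −0.73, −0.67 and −0.30 on the log2 scale. With ΔNp63α the first of them fell (−0.27, adjusted p = 0.0195), and the others did not pass (−0.18, adjusted p = 0.102, and −0.05, adjusted p = 0.782). A pair of these was higher with ΔNp63α than with TAp63γ (0.46, adjusted p = 2.88e-04, and 0.49, adjusted p = 1.03e-04), unlike the probe set used, whose name marks it as one that may share sequence with other transcripts, as does that of CENPA. The second brightest BUB1 probe set fell with shDBD (−1.36 ± 0.159, adjusted p = 1.93e-05) and rose with ΔNp63α (0.62 ± 0.13, adjusted p = 0.00217), and its value with TAp63γ was −0.28 (adjusted p = 0.0962). A further BUB1 probe set, at a median percentile of 37.5, changed by −0.07 with shDBD (adjusted p = 0.792) and by 0.07 with TAp63γ (adjusted p = 0.624). It rose with ΔNp63α (0.32, adjusted p = 0.0226). The remaining pair lay at the percentiles 2.81 and 7.42. Averaging all probe sets of a gene reduced the BUB1 rise with ΔNp63α to 0.36, its fall with shDBD to −0.65, its fall with TAp63γ to −0.18 and its difference between these 2 effects to 0.48, each of which still passed. For CENPF the same averaging gave −1.16 with shDBD, −1.09 with TAp63γ and 1.40 between ΔNp63α and TAp63γ.

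**Figure D4:**
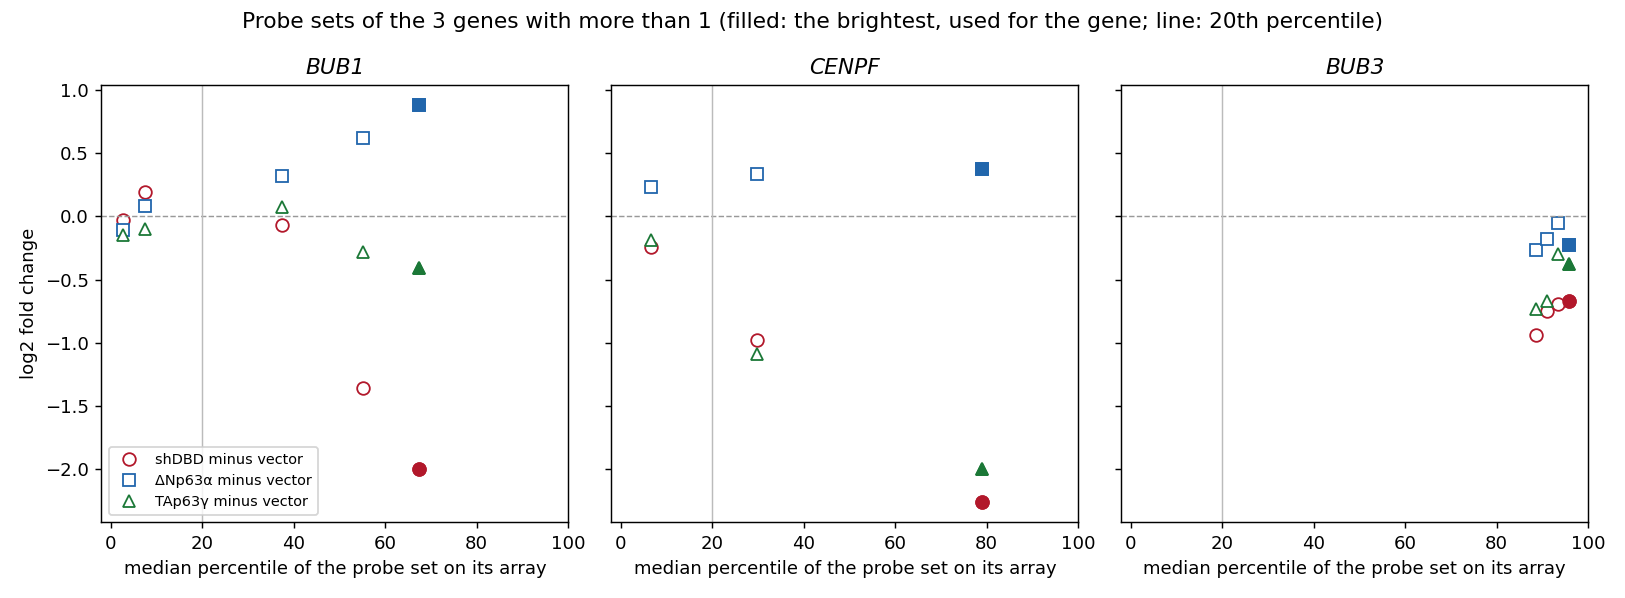
Log2 fold change (y axis) of every probe set of BUB1, CENPF and BUB3 with shDBD, ΔNp63α and TAp63γ, each against its vector, by the median percentile of the probe set on its arrays (x axis); filled symbols are the probe sets used for the gene and the grey line is the 20th percentile. The BUB1 and CENPF probe sets below that line lie between −0.24 and 0.23, and with TAp63γ the 4 BUB3 probe sets lie between −0.73 and −0.30.

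Other genes of the pathway were read from 6 lists of 64 genes, 48 of which had a probe set with 1 symbol. With shDBD, 28 of the 48 were lower and 5 higher, with a median log2 change of −0.39, against 0.00 over all genes. Of all genes tested, 10.2% were called lower and 11.1% higher, so the count of higher genes is near that share. All 4 genes of the chromosomal passenger complex fell, among them its kinase AURKB (−1.89 ± 0.159, adjusted p = 5.37e-07) and BIRC5, the subunit survivin (−1.83 ± 0.12, adjusted p = 5.07e-08). The smallest fall in this complex was that of the subunit INCENP (−0.29 ± 0.0952, adjusted p = 0.0426). All 3 genes for loading CENPA onto chromatin fell, as did 5 of 10 in the inner centromere network, 4 of 8 in the outer kinetochore and 5 of 9 in checkpoint recruitment and silencing, where 2 rose. Of 14 genes of the anaphase-promoting complex and its targets, 7 fell and 3 rose. The largest falls there were those of CDC20, the activator that the checkpoint inhibits (−1.88 ± 0.169, adjusted p = 1.03e-06), and UBE2C, a ubiquitin-conjugating enzyme of the complex (−1.77 ± 0.124, adjusted p = 1.05e-07). Of those that did not pass, CENPQ of the inner network (−0.37, adjusted p = 0.368) and the dynein regulator NDEL1 (0.28, adjusted p = 0.188) had the largest values.

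With shTA, 0 of the 48 passed in limma, against 2.29% of all genes, and the median was −0.08, against −0.01 over all genes. An unadjusted p under 0.05 was reached by 8 of the 48. The share of all genes under that unadjusted threshold was not counted, so the 8 are not read as an excess. The largest values were those of CENPT, which links inner and outer kinetochore (−0.42, adjusted p = 0.0667), and INCENP, the scaffold of the passenger complex (−0.38, adjusted p = 0.0517). In the alternative settings between 0 and 4 of the 48 passed. Between the hairpins, 26 were lower with shDBD than with shTA and 5 higher (9.23% and 9.14% of all genes; median −0.42, against 0.02 over all genes), led by AURKB (−1.80 ± 0.159), BIRC5 (−1.72 ± 0.12), CDC20 (−1.63 ± 0.169) and CENPU (−1.61 ± 0.147). CENPT (0.32) and CENPQ (−0.27) had the largest values among those that did not pass. INCENP, which was lower with shDBD than with the vector, did not pass between the hairpins (0.09, adjusted p = 0.613).

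With ΔNp63α, 14 of the 48 rose and 6 fell, with 12.3% of all genes called higher and 16.6% lower, and with a median of 0.09, against 0.00 over all genes. The count of falls is thus not above the share over all genes. The largest rises were spread over the lists: CENPQ (0.99 ± 0.204, adjusted p = 0.00169), the MIS12 complex subunit DSN1 (0.97 ± 0.112, adjusted p = 7.73e-06), ZWILCH, a subunit of the complex that ZWINT recruits (0.82 ± 0.0801, adjusted p = 1.30e-06), and SPC25, a partner of NDC80 (0.79 ± 0.165, adjusted p = 0.00183). In the passenger complex 0 of 4 passed, with values of 0.06 to 0.17. FBXO5, an inhibitor of the anaphase-promoting complex (0.39, adjusted p = 0.202), and CENPC (0.35, adjusted p = 0.069) had the largest values among those that did not pass.

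With TAp63γ, 19 of the 48 fell and 7 rose, with 22.8% of all genes called lower and 20.5% higher, and with a median of −0.15, against −0.02 over all genes. The count of rises is thus not above the share over all genes. SPDL1, which brings dynein to kinetochores (−1.12 ± 0.091, adjusted p = 6.84e-08), CENPU (−1.06 ± 0.12, adjusted p = 2.47e-06) and CENPC, which anchors the kinetochore on CENPA chromatin (−1.00 ± 0.137, adjusted p = 1.83e-05), had the largest falls. The largest change of all in the lists was a rise, that of PTTG1, which encodes securin, the inhibitor of the protease that parts sister chromatids (1.18 ± 0.0707, adjusted p = 2.32e-09). PTTG1 also rose with ΔNp63α (0.64 ± 0.0707, adjusted p = 5.09e-06), by less than with TAp63γ (difference −0.54 ± 0.0707, adjusted p = 1.92e-05), and fell with shDBD (−1.63 ± 0.0865, adjusted p = 5.90e-09), so TAp63γ and shDBD moved it in opposite directions; its probe set is also of the kind that may share sequence with other transcripts. AURKB (−0.01, adjusted p = 0.974) and CDC20 (−0.05, adjusted p = 0.804) did not pass with TAp63γ. ANAPC10, a subunit of the anaphase-promoting complex (−0.43, adjusted p = 0.0561), and SPC25 (−0.31, adjusted p = 0.152) had the largest values among those that did not pass. In checkpoint recruitment and silencing 4 of 9 rose and 2 fell, and in the inner centromere network 5 of 10 fell and 1 rose.

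Between ΔNp63α and TAp63γ, 24 of the 48 were higher with ΔNp63α and 4 lower, with 19.2% of all genes called higher and 20.6% lower, and with a median of 0.23, against 0.02 over all genes. CENPQ (1.70 ± 0.204), CENPU (1.47 ± 0.12), KNTC1, the ROD subunit of the complex with ZWILCH (1.36 ± 0.0786), and CENPC (1.35 ± 0.137) differed most. In the inner centromere network 7 of 10 were higher and 0 lower, and in the passenger complex 1 of 4 was higher. MIS12 (0.28) and NDEL1 (−0.26) had the largest values among those that did not pass.

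**Figure D5:**
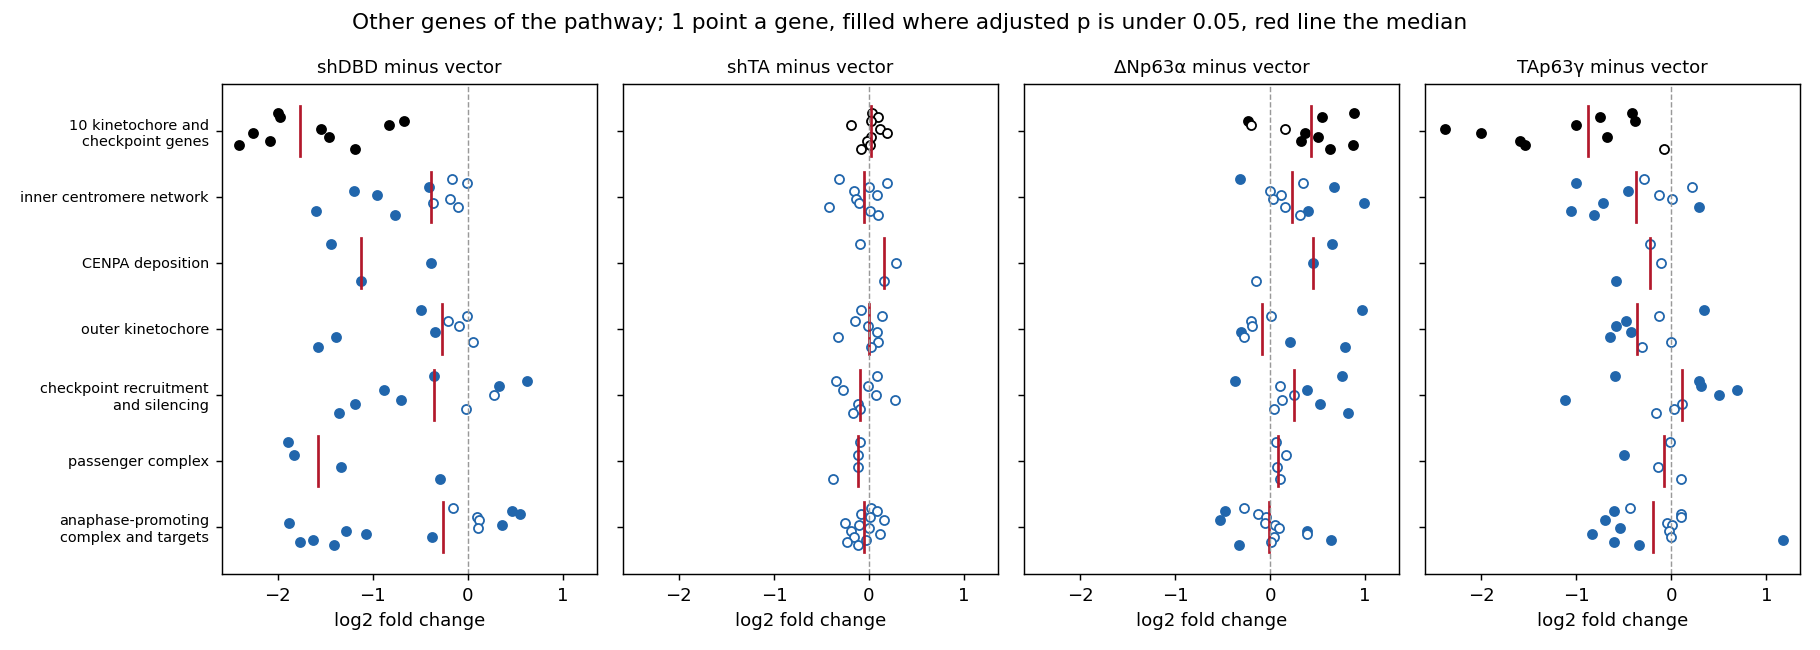
Log2 fold changes (x axis) of the 10 genes (top row) and of 48 other genes of the pathway in 6 lists (rows), for shDBD, shTA, ΔNp63α and TAp63γ, each against the vector of its arm; each point is a gene, filled where the adjusted p was under 0.05, and the red line is the median of the row. Filled points lie mostly left of 0 with shDBD, there are none with shTA, and with TAp63γ the point farthest right is PTTG1.

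Outside these lists, the genes closest to the median of the 10 over the 15 arrays, each value taken relative to the vector mean of its arm, were KIF23 (mean absolute difference 0.122 on the log2 scale), CCNB2 (0.128), CCNA2 (0.152), NUSAP1 (0.152) and LTBP1 (0.162). KIF23 is a kinesin of cytokinesis, CCNB2 and CCNA2 are cyclins, NUSAP1 binds spindle microtubules and LTBP1 binds latent TGF-beta outside the cell. LTBP1 changed by −1.52 with shDBD, −0.03 with shTA, 0.63 with ΔNp63α and −0.47 with TAp63γ. Among the 10 genes themselves, BUB1B lay closest to that median (0.103) and CENPE farthest from it (0.406), although each contributes to it.

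RNA quality was read from the difference between 3′ and 5′ probe sets of the actin control, which rises with degradation. It averaged 0.0668 ± 0.0262 with shDBD and 0.102 ± 0.14 with shTA, against −0.0868 ± 0.00982 with the shRNA vector (log2 difference, SD, n = 2 each). In the overexpression arm it averaged 0.162 ± 0.0594 with ΔNp63α and 0.0772 ± 0.0663 with TAp63γ, against 0.17 ± 0.0578 with the vector (SD, n = 3 each). The same difference of the GAPDH control averaged 0.0342 ± 0.0158 with shDBD and 0.0369 ± 0.0414 with shTA, against 0.00674 ± 9.40e-04 with the shRNA vector (SD, n = 2 each). With ΔNp63α it averaged 0.0553 ± 0.0782 and with TAp63γ −0.0293 ± 0.0496, against 0.0132 ± 0.0328 with the overexpression vector (SD, n = 3 each). Both hairpins thus lay above their vector in both controls, by less for GAPDH than for actin. The part of this difference in the shDBD result was not tested.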

How the data were processed

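Gene expression was measured on 15 Affymetrix arrays of 22277 probe sets. The deposited values are RMA values on the log2 scale, per the submitters' processing notes; the sources used here do not give its version, its settings or whether the authors ran it on both arms at once. RMA gives the arrays it normalizes the same distribution, which would hide a shift of most transcripts the same way. An array has no read depth, and the number of arrays limits the precision.

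The platform annotation gave 1 symbol to 19064 probe sets, several to 1043 and none to 2108 that it does not list, and 62 were controls. A current gene table held the Entrez identifiers of 19052 of the probe sets with 1 symbol and changed 0 of their symbols. Each of the 11963 genes was read from its probe set of highest mean over the 15 arrays. limma 3.58.1 in R 4.3.3 fitted a mean per group over the 15 arrays (9 residual and 5.87 prior degrees of freedom, variance trend on the mean level). Tests were two-sided, with Benjamini-Hochberg adjustment over all genes within a comparison and a threshold of 0.05. The script was tested on simulated data. A level under the 20th percentile of its array was not taken as above background.

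Named genes were the 10 members, in each comparison up to 4 called and 2 uncalled genes of the 6 pathway lists with the largest absolute log2 change, and the 5 genes most like the median of the members. The values of AURKB, CDC20, INCENP and PTTG1 in further comparisons were added after they were seen. The members, lists and tests were chosen with earlier results of these data known. Deviations from the group means correlated between arrays of the same number by 0.00137 to 0.069 (knockdown) and by −0.628 to 0.476 (overexpression). The replicate numbers were therefore not taken to pair samples. Between overexpression arrays of different groups and numbers the correlations ran from −0.725 to 0.675, the highest for ΔNp63α replicate 3 with vector replicate 1. Others were 0.634 for ΔNp63α replicate 1 with vector replicate 2 and 0.589 for TAp63γ replicate 2 with vector replicate 1. Structure shared between groups under other numbers was thus not modelled, and the replicate block does not match it. Its source was not tested. Alternatives were separate fits of the arms, a replicate block, no variance trend, 2 other normalizations, 3 other choices of probe sets, a floor on low values, and each array left out in turn.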

Additional observations from a re-analysis of the deposited data

How the results depend on the processing

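Of 1670 recomputed values of the 10 genes, 1605 kept their side of the threshold, 59 lost and 6 gained a call, and 0 called values changed sign. Values that were not called could change sign and still count among the 1605. An example is NDC80 with shTA, at −0.02 in the main fit and between −0.13 and 0.08 in the alternatives. Over the 24 alternatives, all 10 genes were called with shDBD against the vector and against shTA, 0 with shTA and 9 with TAp63γ. With ΔNp63α between 6 and 8 were called, and between ΔNp63α and TAp63γ 9 or 10. For the TAp63γ effect minus the shDBD effect the count ran from 4 to 8 when arrays were left out, 4 being without shRNA vector replicate 2. Leaving out an array of the knockdown arm leaves a lone array in its group, which is assumed to vary like the other groups. The cause was not tested. BUB3 with ΔNp63α also lost its call with cyclic loess (−0.16, adjusted p = 0.0957) and with the mean of its probe sets (−0.18, adjusted p = 0.0541). Between ΔNp63α and TAp63γ, BUB3 gained one with that mean (0.34, adjusted p = 8.83e-04). For the difference of both effects, quantile normalization brought CENPF past the threshold (0.43, adjusted p = 0.0337) and cyclic loess BUB3 (0.39, adjusted p = 0.00858).

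With the replicate number as a block, MAD2L1 lost its call with ΔNp63α (adjusted p = 0.0719), and in the difference of both effects so did MAD2L1 (adjusted p = 0.0672) and TTK (adjusted p = 0.0761); the block changed no other call of the 10 genes. It reduced the count over all genes with shTA to 150, against 274 without it.

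Over all genes, the count with shTA was 1064 with the arms fitted separately, 472 without ΔNp63α replicate 3, 131 and 87 without shTA replicates 1 and 2, and 90 and 95 without shRNA vector replicates 1 and 2. With shDBD it was 1650 without shRNA vector replicate 1, against 2543. Between shDBD and shTA it was 3359 with the arms apart, 1348 without shDBD replicate 1 and 1463 without shTA replicate 2, against 2197. The 4 pathway genes that passed with shTA did so with the arms fitted separately, 2 did so with quantile normalization, and 1 in each of 7 further alternatives. With both other normalizations the median change of all genes stayed between −0.01 and 0.02. Flooring values at the 20th percentile could not change the shDBD falls of CENPE (−1.54) and NDC80 (−2.08), since every array of both genes lay above it. Whether RMA compressed these falls was not tested.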
